A study of Trametes gibbosa with 15 samples.

Results

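The 122 genes described here stood at 25% or less of their control level at every day on wood in Trametes gibbosa (synonym Lenzites gibbosa), a white-rot fungus, here its strain CB-1. They were chosen from the deposited counts themselves. A gene had to average 10 or more CPM in the control (counts relative to library size, scaled by TMM factors), each of the 4 wood day means had to lie at or below 25% of the control mean, and all 12 wood libraries had to lie below all 3 controls. Of 12038 genes with reference identifiers, 7345 reached 10 CPM in the control, 139 of these also met the limit at every day, and 124 of those also did not overlap. Another 2 were then left out because they ranged 100-fold or more within a group, which leaves 122 genes, 1.66% of the 7345. The whole table lists 12885 genes and newly assembled loci.

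The fungus was grown as stationary cultures in 70 ml of LNAS, a low-nitrogen medium with asparagine, succinate and glucose, for 10 days. Wood cultures then received 2 g of poplar chips (Populus simonii × P. nigra) and were harvested after a further 3, 5, 7 or 11 days, while control cultures were harvested at the start without wood. Each of the 5 groups had 15 bottles, used as 3 biological replicates, and poly-A RNA of the mycelium was sequenced as 15 libraries. All wood cultures were older than the controls, so wood and culture age cannot be told apart. By the codes in their labels the libraries fall into a first series of 6 (the 3 controls and replicate 1 of days 3, 5 and 7) and a second series of 9 (all others, with every day 11 library). Totals of estimated counts were 40193836 to 48361622 in the second series and 32472274 to 35419940 in the first.

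White-rot fungi are basidiomycetes that break down lignin as well as cellulose and hemicellulose. They do so with secreted peroxidases, laccases and enzymes that supply hydrogen peroxide, together with glycoside hydrolases and lytic polysaccharide monooxygenases. Glucose in the medium commonly represses enzymes for the use of plant polysaccharides, and in the related white-rot fungus Phanerochaete chrysosporium a shortage of nitrogen is known to switch on lignin degradation. No source used here pairs the gene identifiers with products, so none of the 122 genes can be placed in these families, and they are described by identifier, level and course.

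The genes included many of the most abundant transcripts of the control. Together they held 2.04% ± 0.480 of all counts with wood (SD, n = 12) and 12.02% ± 0.337 in the control (SD, n = 3). Of the 10 genes with the most CPM, 0 were members with wood and 7 in the control. Of the top 100, 6 were members with wood and 25 in the control. Ranked by deposited FPKM, which accounts for transcript length, 4 of the top 100 were members with wood and 23 in the control. The median member stood at 40.1 CPM with wood and 361 CPM in the control, where the median of all 7345 genes was 59.1 CPM. Member means ranged from 0.0526 to 2182 CPM with wood and from 13.0 to 16784 CPM in the control. All of these differences between wood and control follow from the choice of the genes and are given without a test.

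**Figure D1:**
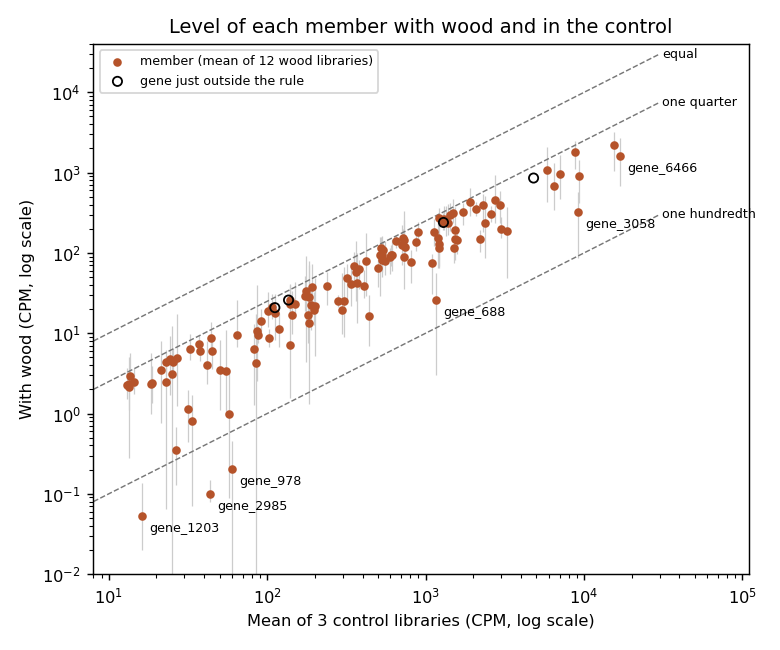
Mean CPM of each of the 122 genes over 12 wood libraries (y axis) against the mean of 3 control libraries (x axis), both on log scales. Bars span the lowest to the highest wood library and run to the axis floor where a library held 0 counts, dashed lines mark fixed ratios, and open circles are the 4 genes just outside the limit. In 86 genes the wood mean lies less than 10-fold below the control, and gene_2985, gene_1203 and gene_978 lie more than 100-fold below it.

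In these genes every day mean lay at or below the limit by the rule, so the mean over all wood libraries did too. How far below the limit a gene lay was not fixed by the rule. Over the 12 wood libraries the median member kept 15.0% of its control level, with quartiles of 9.64% and 17.9%, beside a median of 102% over all 7345 genes. In 111 genes the wood mean was at least 5-fold lower, in 36 at least 10-fold, in 11 at least 20-fold, and in 3 at least 100-fold. Expression did not cease in most of them. With wood, 87 genes still averaged 10 CPM or more and 43 averaged 100 CPM or more, and only 6 averaged under 1 CPM. TMM scaling keeps the middle of all genes near its control level, and these percentages are set against that. With library totals as the scaling, the median of all 7345 genes lay at 134% of control (0.42 on the log2 scale) and the median member at 19.8%. With that scaling 68 genes met the rule, all 68 of them among the 122.

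The 8 members with the most CPM in the control, a level not divided by length, were gene_6466, gene_2336, gene_2195, gene_3058, gene_9487, gene_5621, gene_11466 and gene_2185, with control means from 5851 to 16784 CPM. These 8 alone held 1.01% ± 0.297 of all counts with wood (SD, n = 12) and 6.33% ± 0.282 in the control (SD, n = 3). The highest of them, gene_6466, had a low of 687, a median of 1673 and a high of 2682 CPM over the wood libraries, against 15397, 15353 and 19601 CPM in the 3 controls. gene_2336 had 1041, 2208 and 3215 CPM as low, median and high with wood, and 15325, 14628 and 16345 CPM in the controls. Both genes were lowest in replicate 2 of day 7 and highest in replicate 1 of day 5. The rule requires every wood library to lie below every control, and for both genes the margin was wide.

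gene_3058 was cut furthest among the 8. It had a low of 86.3, a median of 308 and a high of 579 CPM with wood, against 7751, 9167 and 10751 CPM in the controls, so that it kept 3.52% of its control mean. gene_9487 was cut least of the 8, with a low of 1101, a median of 1840 and a high of 2442 CPM with wood against 9690, 7956 and 8688 CPM in the controls. It kept 20.4% of its control mean. The other 6 kept between 9.65% (gene_6466) and 18.6% (gene_2185). Per transcript length, gene_5621 was the highest member in the control, at a mean of 953 FPKM with wood and 5453 FPKM in the control, and gene_2185 was the highest with wood, at 1210 FPKM with wood and 4944 FPKM in the control.

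The deepest cuts were in genes of modest control level. gene_2985 averaged 0.0991 ± 0.0236 CPM with wood (SD, n = 12), which was 4 or 5 counts in every library, against 43.8, 51.4 and 35.2 CPM in the controls, and kept 0.228%. gene_1203 had 1 to 6 counts per wood library, with a median of 0.0436 CPM, against 0.359, 26.6 and 21.4 CPM in the controls. Its control mean thus rested on replicates 2 and 3, and the first control, with 10 counts, lay close to the wood libraries. gene_978 had a median of 0.179 CPM with wood, from 0 to 0.458 CPM, against 73.0, 78.5 and 28.2 CPM in the controls. Counts this low are estimates by the authors' software, so the sizes of these 3 folds are rough.

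The next 3 by depth of cut were gene_6461, gene_5633 and gene_688, which kept 1.31%, 1.69% and 2.24% of their control means. gene_6461 had 0.130 to 0.679 CPM with wood, median 0.346 CPM, against 35.8, 43.3 and 0.994 CPM in the controls. Here the third control lay close to the wood libraries. gene_688 was the only one of the 6 that was abundant in the control, with a low of 3.06, a median of 27.7 and a high of 55.9 CPM with wood, against 1226, 1157 and 1114 CPM in the controls. Its controls were close to each other, while the wood libraries of day 11 alone held 3.06, 31.6 and 4.17 CPM.

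By the median, control replicates were less alike in these genes than over all genes. The coefficient of variation over the 3 controls had a median of 16.4% in the members and 11.9% over all 7345 genes. The control values also served to choose the members, and the part of that choice in this difference was not tested. The coefficient was widest in gene_1192, whose controls held 732, 59.4 and 94.2 CPM beside wood libraries of 9.73 to 56.3 CPM. Its highest wood library, replicate 2 of day 3, thus came close to its lowest control. gene_3059 held 39.1, 335 and 54.6 CPM in the controls and 9.89 to 33.5 CPM with wood, and for both genes 1 control carried most of the control mean. At the other end, gene_7490 held 282, 277 and 281 CPM in the controls and from 21.1 to 29.9 CPM with wood.

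The members most even across all 12 wood libraries were gene_26, gene_7490 and gene_9513, among those averaging 5 CPM or more with wood. gene_26 averaged 142 ± 14.4 CPM with wood (SD, n = 12) and 653 ± 61.2 CPM in the control (SD, n = 3). gene_9513 averaged 137 ± 17.5 CPM with wood and 874 ± 71.2 CPM in the control, with the same numbers of libraries. In these 3 genes the spread over libraries that differ in day and series was 10.1% to 12.8% of the wood mean. The typical member varied more, with a median within-day coefficient of variation of 29.6%, beside 15.5% over all 7345 genes.

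The limit of 25% lay within a continuous range. Just inside it were gene_8399, gene_4332, gene_10920 and gene_3358, whose highest day means stood at 24.9%, 24.8%, 24.7% and 24.7% of control. Just outside were gene_6010, gene_9225, gene_8240 and gene_6007, at 25.3%, 25.4%, 25.5% and 25.6%. Among these outside genes, gene_6007 averaged 856 CPM with wood and 4801 CPM in the control. Of the 2 genes left out for their range within a group, gene_3969 fell to 1 count in replicate 2 of day 5 and otherwise held 0.356 to 13.4 CPM with wood, against 77.2, 70.3 and 48.2 CPM in the controls. The other, gene_4702, held 954 counts in replicate 2 of the control and 4 in each of the other controls, beside 2 to 4 counts per wood library. A further 15 genes met the limit at every day but had a wood library above a control.

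The levels among the wood days were not fixed by the rule beyond its upper limit, and day 7 was the lowest day for most of these genes. The median member stood at 15.5% of control on day 3, 15.7% on day 5, 12.4% on day 7 and 13.4% on day 11, where the medians of all 7345 genes were 102%, 101.5%, 99.98% and 99.93%. Day 7 had the lowest mean in 65 members (53.3%), beside 25.9% of all 7345 genes, and day 5 in 8 members (6.56%), beside 12.1%. In 14 members the means fell in the order of days 3, 5, 7 and 11 (11.5%, beside 11.1% of all 7345 genes) and in 2 they rose in that order (1.64%, beside 6.004%). The highest day mean exceeded the lowest by a median factor of 1.54, beside 1.23 over all 7345 genes. Members also varied more within a day, with a median coefficient of variation of 29.6%, beside 15.5%. Such spread alone widens that factor, and its part was not tested. The day means carry no term for library series, and day 11 is the only day with no first-series library.

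In the fit with that term the dip was a small shift in many genes rather than a large one in a few. Of the 122 members, all passed the filter on low counts in the fit of 11386 genes, and 120 also passed a filter over the wood libraries alone. On day 7 against day 5 the median log2 fold change was -0.33 in the members, beside -0.000764 over all 11386 genes, and 102 of 122 members were lower. On day 7 against day 3 the median was -0.39, beside -0.00282 over all genes, and 93 members were lower. On day 11 against day 7 it was 0.20, beside 0.00798, and 95 members were higher. For these counts of members by direction, the shares over all genes were not worked out. The median over members kept its sign in each of these 3 comparisons under every alternative test, scaling, filter and choice of libraries that was run. The members were not tested as a group, since they share libraries and were chosen with these data. By library, the median member on day 7 stood at 14.9% of control in the first series, against 16.6% on days 3 and 5. In the second series it stood at 9.49% and 11.02% on day 7. It held 13.2% and 13.9% there on day 3, and 14.2% and 11.8% on day 5. Day 7 thus lay below days 3 and 5 without overlap only within each series. Its first-series library lay above every second-series wood library. The day 11 libraries, at 10.7% to 14.2%, overlapped those of day 7.

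Few members passed the test between days one by one. A call needed an edgeR adjusted p under 0.05 (Benjamini-Hochberg over all 11386 genes) and a change of 2-fold or more. On day 7 against day 5, 0 members were called, beside 0.00878% of all genes. At an unadjusted p under 0.05 there were 27 members (22.1%), beside 4.68% of all genes, and 25 of them were lower, beside 2.84%. DESeq2 called 1 of the 121 members it tested, beside 0.231% of all genes. On day 7 against day 3, 0 members were called, beside 0.246% of all genes, with 39 of 122 at an unadjusted p under 0.05, beside 16.8%, of which 36 were lower, beside 9.08%. DESeq2 called 4 (3.31%), beside 1.50% of all genes. On day 11 against day 7, 0 were called, beside 0.00878% of all genes, with 19 (15.6%) at an unadjusted p under 0.05, beside 10.9%, of which 18 were higher, beside 5.68%. DESeq2 called 4 (3.31%), beside 0.797%. On day 5 against day 3, 0 were called, beside 0.0176% of all genes, with 13 (10.7%) at an unadjusted p under 0.05, beside 7.94%, and 0 by DESeq2, beside 0.533%.

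In the test for any difference among the 4 wood days, 4 members passed an adjusted p under 0.05 (3.28%, beside 1.01% of all genes), and 28 (23.0%) an unadjusted p under 0.05, beside 16.2%. The count depended on the fit. DESeq2 called 21 of 121 members (17.4%), beside 9.95% of all genes. Without the series term edgeR called 2 (1.64%), beside 0.184%, and the second series alone gave 0, beside 0.175%. With a replicate block beside the series term, on 14 libraries, 0 members were called, beside 19 of 11524 genes, so all 4 calls were lost there. The deviations of same-numbered libraries from their day means correlated across genes by 0.310, 0.139 and 0.109 between days 7 and 3, and by at most 0.0976 between days 11 and 3 and between days 11 and 7. Series was not taken out of these deviations, and replicate 1 of days 3 and 7 is of the first series. Of the 4, gene_4506 and gene_8537 showed the dip at day 7 in every library. gene_4506 held 75.8, 58.1 and 65.9 CPM on day 7, below all 9 libraries of the other wood days, which held 91.5 to 120 CPM (edgeR adjusted p = 0.0066 among days). Its controls held 541, 515 and 546 CPM. gene_8537 held 53.0, 35.5 and 42.5 CPM on day 7, against 58.5 to 82.2 CPM on the other wood days (edgeR adjusted p = 0.013 among days), and 385, 363 and 383 CPM in the controls.

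The other pair followed different courses. gene_6127 returned in part: it held 10.8, 7.02 and 4.33 CPM on day 11, against 1.07, 1.22 and 1.47 CPM on day 7, 1.17, 1.51 and 2.11 CPM on day 5, and 2.63, 4.63 and 2.47 CPM on day 3 (edgeR adjusted p = 0.019 among days). As the rule requires, all its wood libraries lay below its controls of 58.1, 42.8 and 64.2 CPM. gene_5318 was highest on day 3 by its mean, with 20.6, 20.7 and 18.0 CPM on day 11 against 22.2, 42.9 and 35.5 CPM on day 3 (edgeR adjusted p = 0.040 among days). Its day 5 libraries, at 16.04 to 26.09 CPM, overlapped those of day 3, and those of days 7 and 11 did not. Its controls held 144, 177 and 126 CPM. Leaving out 1 library ended the calls among days of gene_4506 in 0 of 15 fits, of gene_8537 in 1, of gene_6127 in 3 and of gene_5318 in 11.

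**Figure D2:**
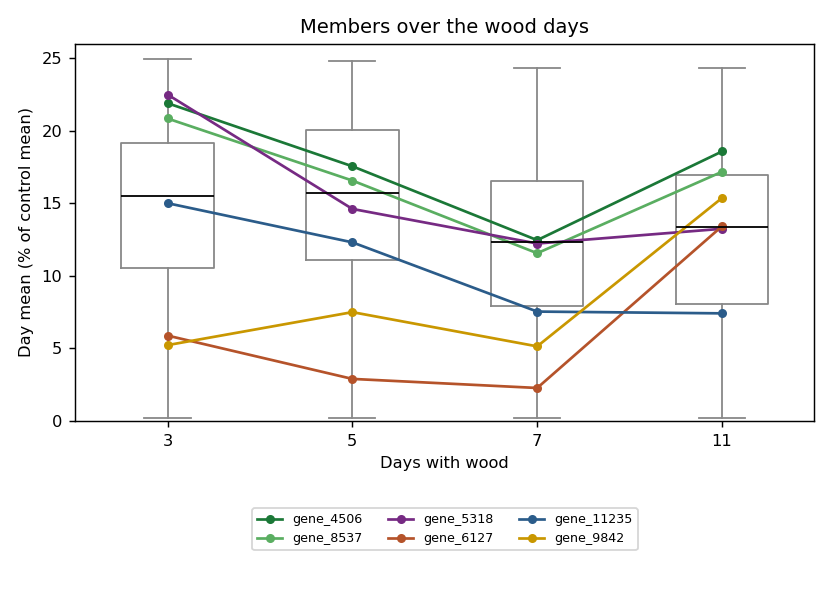
Mean of each wood day as a percentage of the control mean, over the 122 genes (boxes: quartiles and median, whiskers to the furthest value within 1.5 box lengths) and for 6 single genes (lines). The box medians are 15.5%, 15.7%, 12.4% and 13.4%, gene_4506 and gene_8537 are lowest on day 7, and gene_6127 and gene_9842 are highest on day 11.

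Between days 11 and 3, 2 members were called, 1 higher (0.729% of all genes were called higher) and 1 lower (0.694% of all genes were called lower). That is 1.64% of members, near the 1.42% of all genes called either way, and at an unadjusted p under 0.05 there were 17 members (13.9%), beside 21.6% of all genes. DESeq2 called 5 (4.13%), beside 3.13% of all genes, and the fit with the replicate block called 0, beside 0.529%. The higher one, gene_9842, held 31.3, 42.0 and 67.3 CPM on day 11 against 29.5, 9.46 and 8.89 CPM on day 3 (change in log2 of 2.35, SE 0.57, adjusted p = 0.048 in edgeR). Its first-series library of day 3 lay just below the lowest day 11 library, and the fitted change uses the series term. Without that term the log2 fold change was 1.55 with an adjusted p of 0.44, and in the second series alone the call was kept. Its controls also disagreed, at 124, 183 and 606 CPM.

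The lower one, gene_11235, held 95.6, 102 and 70.6 CPM on day 11 against 162, 155 and 226 CPM on day 3, without overlap (log2 fold change -1.06, SE 0.24, edgeR adjusted p = 0.035). Each SE here comes from the F statistic, as the absolute log2 fold change over the root of F. The call of gene_11235 was lost when series was no term of the fit, within the second series and with the replicate block. It was kept in 4 of 11 alternatives other than leaving out a library, where that of gene_9842 was kept in 8. With each library left out in turn, 13 of 15 fits no longer called gene_9842 and 8 no longer called gene_11235. Over all alternatives the adjusted p ranged from 0.00021 to 0.44 for gene_9842 and from 0.00083 to 0.13 for gene_11235. The next by p in the higher direction were gene_10735 (log2 fold change 1.13, edgeR adjusted p = 0.068) and gene_6127 (1.05, edgeR adjusted p = 0.11). Neither passed in the main edgeR fit. DESeq2 called both, and edgeR with library totals and limma on log2(FPKM + 0.1) each called gene_10735. In the lower direction gene_5318 had a log2 fold change of -0.90 with an adjusted p of 0.015 (edgeR), short of the 2-fold limit, and gene_7490 had -0.31 with an adjusted p of 0.057.

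The clearest division inside the wood libraries ran between the library series. In the second series the members held 1.83% of counts on average over 9 wood libraries, against 2.67% over the 3 wood libraries of the first series, and every first-series wood library held more than any of the second series. The fitted shift, second over first, had a median log2 of -0.36 in the members, beside 0.0083 over all 11386 genes. By direction alone 100 of 122 members were lower in the second series, and the share over all genes was not worked out. On days 3, 5 and 7 the first-series library lay above both others in 68, 66 and 95 members, 55.7%, 54.1% and 77.9%, beside 38.6%, 36.6% and 38.4% of all 7345 genes. It lay above both on all 3 days in 42 members (34.4%, beside 18.0% of all 7345 genes) and below both on all 3 days in 4 (3.28%, beside 22.9%).

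**Figure D3:**
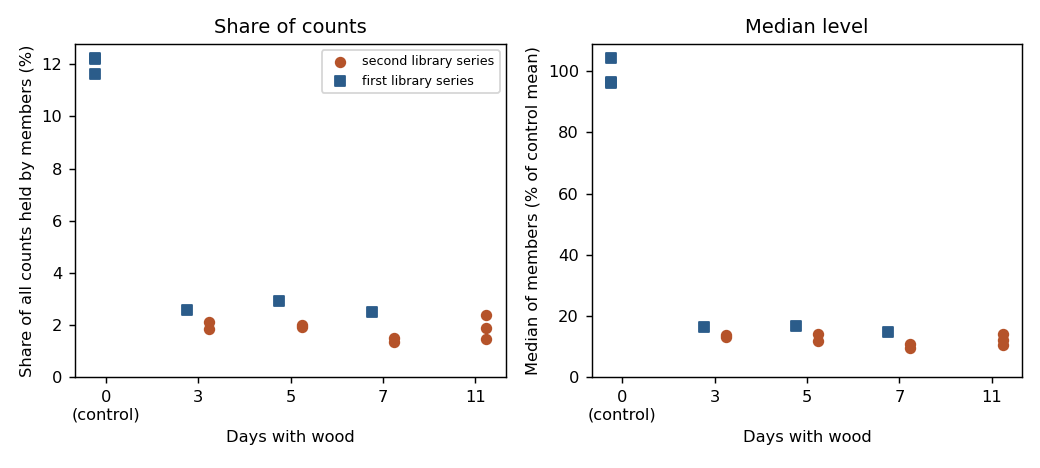
Share of all counts held by the 122 genes (left, percent) and their median level (right, percent of the control mean) in each library, by days with wood, with circles for the second library series and squares for the first. Wood libraries of the first series hold 2.51% to 2.91% of counts and those of the second 1.36% to 2.38%, against 11.6% to 12.2% in the controls.

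The rule takes no account of series, but the controls are all of the first and most wood libraries are of the second. A gene lower in the second series thus met the rule more easily. The excess of such members over all genes, here and in the calls below, can come in part from the choice of genes. How large that part is was not tested. Which genes met the rule also differed with the libraries used. In the first series alone, with 3 controls and 1 library each of days 3, 5 and 7, 135 genes met the rule over those days, of which 87 were among the 122. These 135 kept a median of 13.2% of control over their 3 wood libraries, beside 15.0% for the 122 over all 12. Whether the series differ in culture, extraction or sequencing is not stated in the labels, and the part of any of these in the shift was not tested.

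The series shift was called in 10 members (8.20%), 9 lower in the second series (1.64% of all genes were called lower) and 1 higher (1.05% of all genes were called higher), where 2.69% of all genes were called either way. At an unadjusted p under 0.05 there were 48 members (39.3%), beside 33.1% of all genes, and 46 of them were lower in the second series, beside 15.7%. With the replicate block, 0 members and 0 of 11524 genes were called. On days 3, 5 and 7 the first series is replicate 1 alone, so the block takes up much of the series difference. That fit can therefore not decide on the shift. Among the called members the largest shift was that of gene_6852, at 183 and 153 CPM in the second-series libraries of day 3 against 446 CPM in the first, 238 and 112 against 514 CPM on day 5, and 109 and 87.3 against 427 CPM on day 7. The fitted shift was -1.71 on the log2 scale (SE 0.24, adjusted p = 0.0012 in edgeR). Its day 11 libraries, all of the second series, held 253, 181 and 129 CPM, and its controls 2311, 2429 and 2339 CPM. The first-series wood libraries thus lay above all 9 others, and the fold below control was smaller in them.

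gene_5257 showed the same order, with 236 to 444 CPM over the 9 second-series wood libraries against 883, 931 and 722 CPM in the first series (shift -1.39 in log2, SE 0.19, adjusted p = 0.0011 in edgeR). gene_4089 held 20.1 to 38.8 CPM against 46.1, 70.1 and 72.8 CPM (shift -1.23 in log2, SE 0.16, adjusted p = 0.00085 in edgeR). In both genes the second-series wood libraries did not overlap those of the first. The others lower in the second series were gene_9842, gene_4106, gene_2185, gene_2984, gene_10032 and gene_3058, with log2 fold changes from -1.70 to -1.08. Of these, gene_2185 and gene_3058 are among the 8 members highest in CPM.

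A single member, gene_499, shifted the other way. It held 12.7 and 18.3 CPM in the second series against 5.26 CPM in the first on day 3, 28.1 and 28.6 against 9.68 CPM on day 5, and 29.2 and 35.9 against 12.01 CPM on day 7. The fitted shift was 1.51 on the log2 scale (SE 0.36, adjusted p = 0.014 in edgeR). As the rule requires, all 12 wood libraries lay below its controls of 205, 166 and 228 CPM. Leaving out 1 library ended the series call of gene_2984 in 11 of 15 fits, of gene_3058 in 8, of gene_2185 in 5, of gene_9842 in 3, of gene_499 in 2, and of gene_10032 and gene_4089 in 1 each. It ended that of gene_6852, gene_5257 and gene_4106 in 0. Only 4 members were called without replicate 1 of day 5, and 5 without replicate 1 of day 7.

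**Figure D4:**
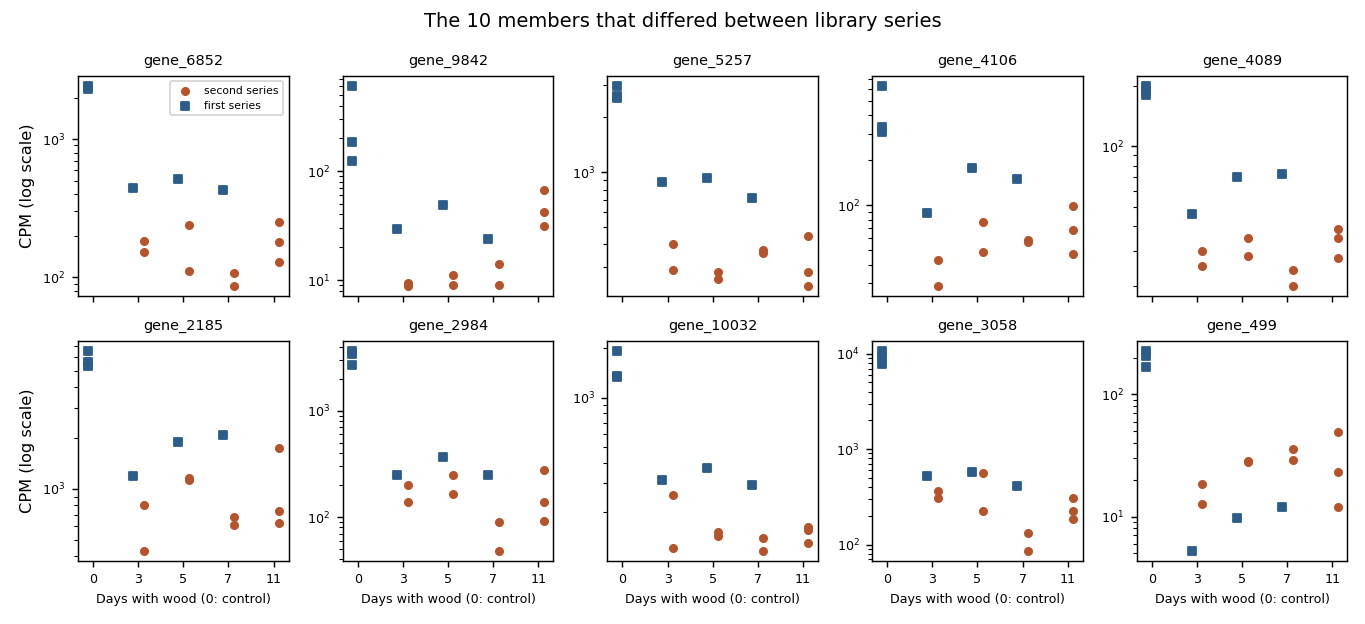
CPM (log scale, own range per panel) of the 10 members whose shift between library series was called, by days with wood, with circles for the second series and squares for the first. In 9 genes the first-series library of days 3, 5 and 7 lies above the second-series libraries of the same day, and in gene_499 it lies below them.

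Some of the genes carry consecutive identifiers. Of the 122, 16 (13.1%) form 8 pairs of adjacent numbers, and 4 further pairs are 2 numbers apart. How often other sets of genes hold adjacent numbers was not worked out, so these counts have no background. The sources used here do not say whether the numbers follow position on the genome, and reads shared between neighbours were not checked. On the deposited FPKM scale, gene_2336 and gene_2337 had wood means of 996 and 3.67 FPKM, against control means of 5381 and 44.5 FPKM, and in TMM-scaled CPM the first kept 14.1% of its control level and the second 5.14%. gene_2984 and gene_2985 had 42.1 and 0.121 FPKM with wood, against 556 and 31.8 FPKM in the control (5.78% and 0.228% of control CPM kept). gene_3058 and gene_3059 had 124 and 6.66 FPKM with wood, against 2705 and 31.9 FPKM in the control (3.52% and 11.9% of control CPM kept). Each of these pairs joins a gene of high FPKM with one far below it, and the depth of cut differed within the pair.

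In the other 5 pairs, too, 1 gene lay well above the other in FPKM, and the genes kept between 6.54% (gene_7547) and 21.2% (gene_7752) of control CPM. Over the 12 wood libraries the log2 CPM of paired genes correlated from -0.29 (gene_3058 and gene_3059) to 0.82 (gene_5739 and gene_5740), as a description over libraries that share day and series. Of 149 genes outside the 122 that are numbered next to a member and reached 10 CPM in the control, 28 (18.8%) stood at or below 50% of control with wood, beside 10.0% of all 7345 genes.

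**Figure D5:**
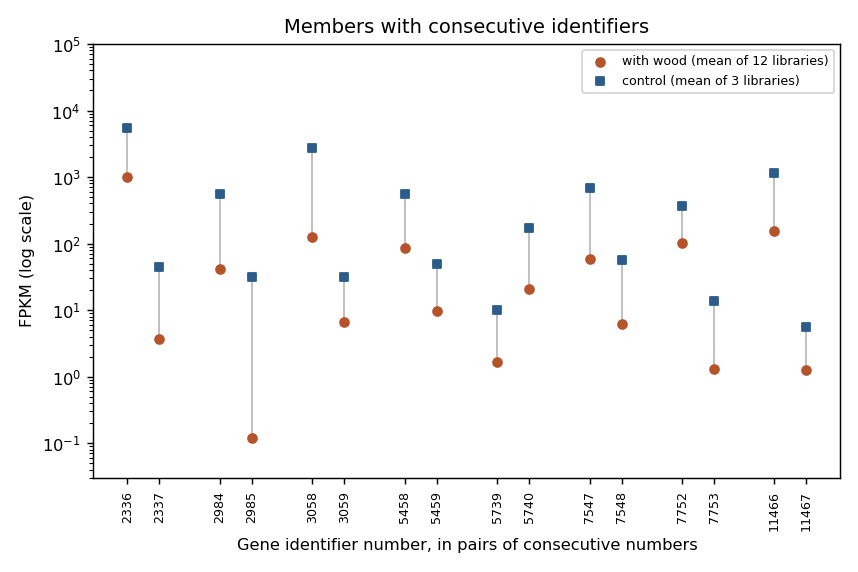
Mean deposited FPKM (log scale) with wood (circles, 12 libraries) and in the control (squares, 3 libraries) of the 16 genes that form 8 pairs of consecutive identifier numbers. In each pair 1 gene lies well above the other, as for gene_2336 and gene_2337 at 996 and 3.67 FPKM with wood and 5381 and 44.5 FPKM in the control.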

How the data were processed

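Estimated counts per gene and FPKM values were deposited by the authors for 15 libraries; HISAT2, StringTie, DESeq 1.10.1 and DESeq2 are listed in the submitters' processing notes without roles, and genome build and annotation are not stated there. Deposited counts are whole numbers and were used as they are. FPKM values, scaled by the authors for transcript length and mapped fragments, served for ranks and alternatives. Columns were matched by title. 1 count column of day 5 matches no title and entered as a day 5 library without number, in the second series, with 0 columns left unused. Its counts correlated by 0.963 (Pearson, log2 values less the gene mean, across genes) with the FPKM column titled as replicate 3 of day 5 and by at most 0.149 with any other, so both were used as 1 library.

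CPM used TMM factors over all 12885 rows (0.795 to 0.816 in controls, 0.991 to 1.14 with wood). The 100-fold range was taken on CPM by library totals plus 0.1. Tests used R 4.3.3 and edgeR 4.0.16: filterByExpr (11386 genes), TMM, a robust quasi-likelihood fit with terms for group and series over 15 libraries, 9 residual degrees of freedom, biological coefficient of variation 38.8%. The procedure was tested on simulated data. Alternatives used DESeq2 1.42.0, limma 3.58.1 on log2(FPKM + 1) and log2(FPKM + 0.1), other scaling, filters and libraries. Libraries within groups differed by more than sampling noise. P-values measure the spread between these libraries. Wood and control values of the members carry no test, since they chose the members.

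Genes were named by level, depth of cut, nearness to the limit, tests between days and series, control spread, evenness over wood libraries and consecutive identifiers. The members and all rules were chosen with earlier results of these data known.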

Additional observations from a re-analysis of the deposited data

Results flagged for a closer look

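Tests between wood days called members in 2 comparisons. Between days 11 and 3, 2 members were called, gene_9842 higher and gene_11235 lower on day 11, which is 1.64% of members beside 1.42% of all genes, so near the background. Among the 4 wood days, 4 members differed, namely gene_4506, gene_8537, gene_6127 and gene_5318, 3.28% of members beside 1.01% of all genes. With a replicate block 0 did, beside 0.165% of all genes. These are tests of the difference itself in the edgeR fit with library series as a term. Groups of 3 libraries are too small to look for single outlying libraries.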

How the results depend on the processing

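The number of members was 68 with library totals, 77 with FPKM for ratios and overlap, 206 with a limit of 33.3% of control and 75 with a limit of 20%, beside 122, and 108 to 128 when 1 library was left out. In that order their share of counts was 1.21%, 1.28%, 3.52% and 1.27% with wood and 8.72%, 8.99%, 16.5% and 9.01% in the control. In the first series alone the control share was 10.6%. Leaving out 1 library gave 1.81% to 2.19% with wood and 11.1% to 12.5% in the control. The median kept with wood was 18.8% and 10.6% with limits of 33.3% and 20%, and 13.4% to 15.1% without 1 library. A smaller or larger fraction changes the members by construction. For library totals and FPKM the cause was not tested beyond the factors given above.

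Calls between days rested on few genes. For days 11 and 3, DESeq2 called 5 members, beside 3.13% of all genes. Upper-quartile factors gave 1, beside 1.54%, no low-count filter 1, beside 1.24%, and limma on log2(FPKM + 1) 1, beside 1.33%. The second series alone gave 1, beside 0.807%, and the fit without the series term 0, beside 0.386%. The fits without 1 library called 0 to 2. For days 7 and 3 DESeq2 called 4, beside 1.50% of all genes, and leaving out 1 library 0 to 1. For days 7 and 5 DESeq2 called 1, beside 0.231% of all genes, and for days 11 and 7 it called 4, beside 0.797%. Between days 11 and 7 limma called 1 on either FPKM scale, beside 0.0703% with 1 added and 0.0615% with 0.1 added. Without 1 library the number there was 0 to 1. Among the 4 days the number was 21 with DESeq2 (beside 9.95% of all genes) and 2 with no series term (beside 0.184%). It was 0 within the second series (beside 0.175%) and 2 to 5 without 1 library. For the series shift it was 17 with limma on log2(FPKM + 0.1), beside 3.08% of all genes, and 4 to 15 without 1 library. The causes were not tested. A further fit had both a series term and a replicate block, with the unnumbered library left out. It called 0 members between days 11 and 3, beside 0.529% of all genes, and 0 among days, beside 0.165%. It also called 0 between series, where the block takes up much of the series difference. Same-numbered libraries of days 11 and 3 correlated by 0.0976, -0.00238 and 0.0822 in their deviations from the day means, so the numbers were not taken as pairs there. For days 7 and 3 these values were 0.310, 0.139 and 0.109. Replicate 1 of both days is of the first series, and series was not taken out, so pairing and series cannot be told apart. Between those days edgeR called 0 members with the block, beside 0.130% of all genes, and 0 without it, beside 0.246%. The median log2 fold change over members changed sign in 2 comparisons, from -0.25 to 0.0137 over the alternatives other than leaving out a library for days 11 and 3, and from -0.117 to 0.052 without 1 library for days 5 and 3. None of the log2 fold changes followed through the alternatives reversed. They were day 11 against day 3 in the members named from tests between days, and the series shifts of gene_6852, gene_9842 and gene_499. Folds of genes with few counts are limited by depth.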
